A study of Homo sapiens with 6 samples.

Results

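Collagens, laminins and integrins were followed through RNA sequencing of 22Rv1 cells, an established human prostate carcinoma line. The members are the gene symbols of the count table that name a collagen chain, a laminin chain or an integrin, with at least 60 counts summed over the 6 libraries. This gave 47 of the 29804 symbols in the table, namely 21 collagens, 8 laminins, 11 integrin alpha chains, 5 integrin beta chains and 2 genes that carry an integrin name without coding for a chain (ITGB1BP1 and ITGB3BP). A further 39 of the 86 symbols of these names fell under the minimum. COL25A1 (68 counts), COL8A2 (63) and COL6A3 (61) lay just inside it, and COL12A1 (51), LAMA1 (49) and ITGB2 (48) just outside. The rule used names and summed counts, not differences between groups. The sum spans all 3 groups, so a member near the minimum can pass through the group where it is high. COL16A1 had 32 and 25 of its 87 counts in the 6WP libraries, and COL25A1 had 16 and 19 of its 68 in the WT libraries. Differences of such members are not independent of the rule.

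All 3 groups were 22Rv1 cells with the same genotype label, grown in RPMI medium with serum and antibiotics, and each had 2 libraries. WT cells had no treatment and were taken at week 0. AM (age matched) cells spent 6 weeks in culture without the drug, alongside the 6WP cells. The 6WP cells received 1 µg/ml of phleomycin, a radiomimetic agent that breaks both strands of DNA, for 1 hour on each week day of those 6 weeks. The labels call the libraries of a group biological replicates but do not say whether the 6 weeks of culture were run separately for each, so p-values measure the spread between these libraries only.

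Collagens are triple helical proteins that form fibrils, sheet-like networks or shorter bridging structures in the extracellular matrix. Laminins are cross-shaped trimers of an alpha, a beta and a gamma chain, and together with type IV collagen they build the basement membrane on which prostate epithelium rests. Integrins are transmembrane receptors made of an alpha and a beta chain, which bind these and other matrix proteins outside the cell and link them to the actin cytoskeleton within it.

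4 stretches of promoter sequence are shown. 2 come from the intergenic spaces of head-to-head type IV collagen pairs, whose genes start on opposite strands a short distance apart. The other 2 lie upstream of LAMB1 and ITGA5, whose expression was called different in AM cells from both other groups. RefSeq (GRCh38.p14) held a window of 250 bases upstream of the start for 35 of the 47 members, and COL14A1, COL1A1, COL3A1, COL5A2, COL6A1, COL9A3, ITGA3, ITGA7, ITGA9, ITGB4 and LAMC3 were among those with no entry. Bases within coding gene exons were trimmed off. Each sequence runs 5′ to 3′ on the strand of the named gene, and capitals mark a GC box (GGGCGG, or CCGCCC on the other strand) or a CCAAT box (CCAAT, or ATTGG on the other strand). The first, at chrX:108439588-108439837 on the plus strand, lies within the 340 bases between COL4A6 and COL4A5. The second, at chr2:227164454-227164623 on the plus strand, is the whole 170 bases between COL4A4 and COL4A3. The third is at chr7:108003214-108003411 and the fourth at chr12:54419267-54419516, both on the minus strand.
COL4A5: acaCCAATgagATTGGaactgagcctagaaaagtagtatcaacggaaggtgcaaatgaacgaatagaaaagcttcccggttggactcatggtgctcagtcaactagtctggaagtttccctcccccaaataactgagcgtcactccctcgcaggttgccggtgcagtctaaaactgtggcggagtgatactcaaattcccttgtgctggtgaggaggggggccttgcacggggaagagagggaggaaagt
COL4A3: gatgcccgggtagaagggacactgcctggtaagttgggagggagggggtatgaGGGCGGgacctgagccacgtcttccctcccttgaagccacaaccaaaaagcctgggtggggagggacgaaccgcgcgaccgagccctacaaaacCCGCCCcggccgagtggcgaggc
LAMB1: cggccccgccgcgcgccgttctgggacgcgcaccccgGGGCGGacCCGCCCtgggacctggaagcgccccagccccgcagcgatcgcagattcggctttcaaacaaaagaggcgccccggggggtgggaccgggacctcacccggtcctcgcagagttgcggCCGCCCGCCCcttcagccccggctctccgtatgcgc
ITGA5: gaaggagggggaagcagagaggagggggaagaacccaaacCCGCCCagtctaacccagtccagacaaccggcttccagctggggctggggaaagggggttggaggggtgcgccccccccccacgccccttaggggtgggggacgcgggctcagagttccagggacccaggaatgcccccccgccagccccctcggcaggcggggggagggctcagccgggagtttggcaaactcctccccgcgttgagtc
The COL4A5 window held 2 CCAAT boxes and no GC box, while the LAMB1 window held 4 GC boxes (a pair of them overlapping), the COL4A3 window 2 and the ITGA5 window 1. Searched on both strands, a GC box was present in 26 of the 46 member windows (56.5%) against 42.6% of 35116 windows of all genes. A CCAAT box was found in 17.4% of member windows against 32% of all, and a TATA box (TATAAA) in 8.7% against 10.7%. The AP-1 motif (TGANTCA) was found in 4.35% of member windows against 6.57% of all. These matches describe the letters of the windows, and some members have more than 1 window.

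Library totals ranged from 21222201 to 35311945 counts. Expression is given as CPM, which are counts scaled to the library total with TMM factors, and 3 counts correspond to between 0.0883 and 0.138 CPM. Differences are log2 fold changes with their SE from edgeR's quasi-likelihood test on all 6 libraries, with p adjusted over the 14672 genes that passed the filter on low counts, and "called" means an adjusted p under 0.05. All 47 members passed this filter. The SD between replicates on the log2 scale had a median over genes of 0.0854 for WT, 0.0911 for AM and 0.196 for 6WP cells, so 6WP values are the least precise. An exact permutation test (two-sided) of 2 libraries against 2 cannot give a p below 0.333, so the calls rest on the model. All 10 luminal prostate epithelial markers, including EPCAM and KLK3, were expressed, while KRT5, CDH5, KDR, PTPRC and CD3E, defining markers of basal, endothelial and white blood cells, were at 0 in every library and the lists of these cell types summed to at most 0.589 CPM.

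After 6 weeks in culture without phleomycin, expression of many of these genes was lower than at week 0. In AM against WT cells, 19 members fell, among them 8 collagens, 5 laminins and 6 integrin alpha chains, and 2 members rose (ITGB5 and ITGB1BP1). Over all tested genes, 9.93% fell and 7.74% rose. The median log2 fold change was -0.79 over the members and -0.00 over all genes, and 39 of the 47 members had a negative value. ITGB1, the most abundant beta chain, was at a mean of 202 CPM in WT and 212 CPM in AM cells and was not among those called.

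In 6WP cells the difference from AM cells ran the other way. In 6WP against AM cells, 18 members rose (8 collagens, 5 laminins, 4 integrin alpha chains and the beta chain ITGB4), where 11.7% of all tested genes rose. A further 3 fell (ITGAE, ITGB5 and ITGB1BP1), where 9.68% of all genes fell. The median log2 fold change was 0.70 over the members and 0.05 over all genes. This comparison and that of AM with WT share the AM libraries, so they are not independent. Of the members, 14 were called lower in AM than WT and higher in 6WP than AM cells, where 5.7% of all tested genes were, and 2 the opposite, where 4.25% were.

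In 6WP against WT cells, 2 members fell (COL4A5 and ITGA7), where 1.37% of all tested genes fell, and 0 rose by the edgeR test, where 1.63% of all genes rose. At an unadjusted p under 0.05 there were 7 members in all (14.9%), against 22.4% of all genes. DESeq2's Wald test called 5 members, all lower, against 7.59% of all genes in either direction. The median log2 fold change over the members was -0.04.

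Both AM libraries lay below the other 4 libraries for 27 members, which were 12 collagens, 8 of the 8 laminins, 6 integrin alpha chains and 1 beta chain, where 23.3% of all tested genes did so. Both AM libraries lay above the others for 3 members, where 21.7% of all genes did so.

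**Figure D1:**
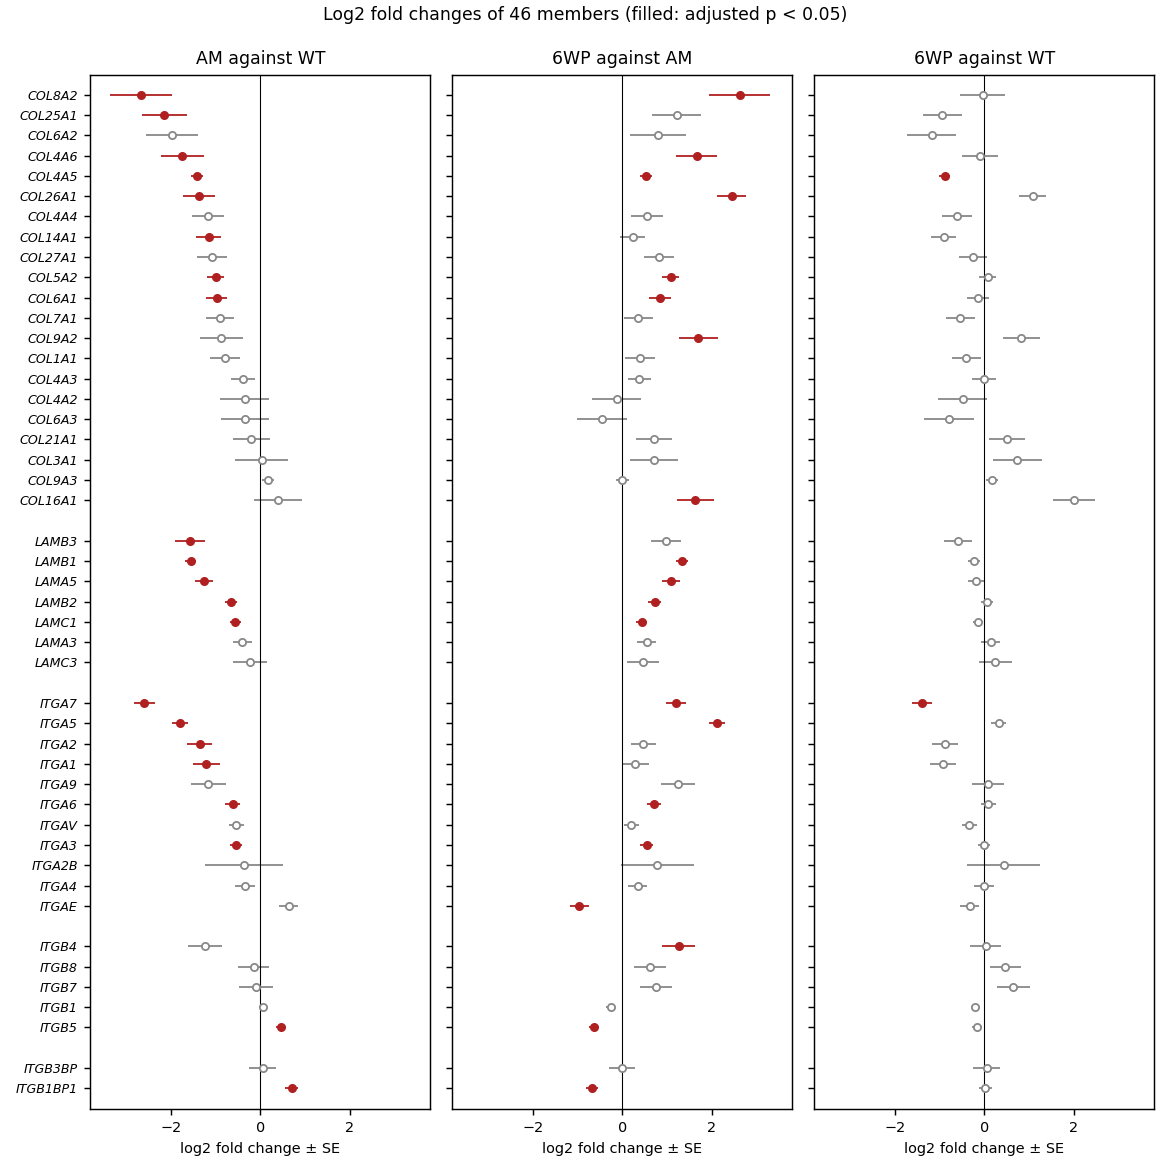
Log2 fold change (x axis, bars are SE) of 46 members (y axis, grouped as collagens, laminins, integrin alpha chains, beta chains and the 2 other integrin-named genes) in the 3 comparisons, with filled points for an adjusted p under 0.05. In AM against WT cells, 38 of the 46 points lie left of 0, and in 6WP against AM cells 38 lie right of it, while in 6WP against WT cells only COL4A5 and ITGA7 are filled.

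The number of calls depended on single libraries. In AM against WT cells, 5 members were called without WT replicate 1, 3 without WT replicate 2, 4 without either AM replicate and 31 without either 6WP replicate. In 6WP against AM cells, 10 were called without either WT replicate, 2 without either AM replicate, 28 without 6WP replicate 1 and 27 without 6WP replicate 2. In 6WP against WT cells, 0 were called without any 1 of the WT or AM replicates, 15 without 6WP replicate 1 and 12 without 6WP replicate 2. The calls over all tested genes also moved. In that comparison they were at most 0.668% without a WT or AM replicate, and 25.9% and 25.7% without 6WP replicate 1 and 2. For AM against WT cells they were at most 0.838% without a WT or AM replicate, and 44.9% and 45.8% without 6WP replicate 1 and 2. For 6WP against AM cells, all genes gave 9.01% and 8.74% without WT replicate 1 and 2, 0.818% and 0.784% without AM replicate 1 and 2, and 46.3% and 33.6% without 6WP replicate 1 and 2. The members' median moved less, from -0.83 to -0.70 in AM against WT cells and from 0.52 to 0.73 in 6WP against AM cells.

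Other features also differed between AM and WT cells. In AM against WT cells, the median log2 fold change fell from 0.183 in the shortest to -0.169 in the longest of 4 equal bins of transcript length. Over the same bins it fell from 0.122 to -0.101 in 6WP against WT cells and rose from -0.0274 to 0.0888 in 6WP against AM cells. With an offset for transcript length, an alternative chosen after seeing the data, 16 members were called in AM against WT cells (21 without it). Of all genes fitted, 19.4% were called with the offset and 17.7% without it. The members' median was -0.65 with the offset, and COL14A1, COL4A6, ITGA1, ITGA3 and ITGA6 were no longer called. Their log2 fold changes with the offset were -0.93, -1.56, -0.94, -0.46 and -0.48 in this order, against -1.15, -1.74, -1.21, -0.54 and -0.62 without it. The summed level of 7 fibroblast and stroma markers was 24.1 and 21.7 CPM in the WT libraries, 4.73 and 4.62 CPM in the AM libraries and 7.48 and 4.51 CPM in the 6WP libraries. In AM against WT cells, 2 of the 4 stroma markers tested fell (LUM and DCN). Most of the WT sum was LUM, at 15.4 and 12.4 CPM. ACTA2 was at 6.47 and 7.26 CPM in WT, 3.66 and 3.88 CPM in AM and 5.64 and 3.24 CPM in 6WP cells. PDGFRB had 10 and 6 counts in WT, FAP 0 in both WT libraries, and THY1 and PDGFRA at most 1 count there. The 10 luminal markers summed to 3210 and 3400 CPM in WT, 2220 and 2550 CPM in AM and 2550 and 3600 CPM in 6WP cells, and in AM against WT cells 4 of them fell and 1 rose. The part of these markers in the results was not tested. In bulk RNA, fewer cells that express a gene and less RNA per cell cannot be told apart.

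Summed over each family, AM cells had the lowest level for 3 of the 4 families. The collagens summed to 143 ± 1.25 CPM in WT, 77.7 ± 1.67 CPM in AM cells (mean ± SD, n = 2 libraries here and below), and to 113 and 108 CPM in the 6WP libraries. The laminins summed to 563 ± 38.5 CPM in WT, 347 ± 4.38 CPM in AM and 525 ± 61 CPM in 6WP cells. The integrin alpha chains summed to 487 ± 4.9 CPM in WT, 195 ± 0.896 CPM in AM and 290 ± 4.65 CPM in 6WP cells. Both AM libraries were the lowest for these 3 families, and the WT and 6WP libraries overlapped only for the laminins. The sum of the beta chains had the opposite order in AM cells, at 359 ± 14.6 CPM in WT, 415 ± 12.6 CPM in AM and 327 ± 12.2 CPM in 6WP cells. Single genes carried much of each sum, with COL4A5 making up 33.2% of the collagens, LAMC1 61.5% of the laminins, ITGA7 39.8% of the alpha chains and ITGB1 53.6% of the beta chains.

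**Figure D2:**
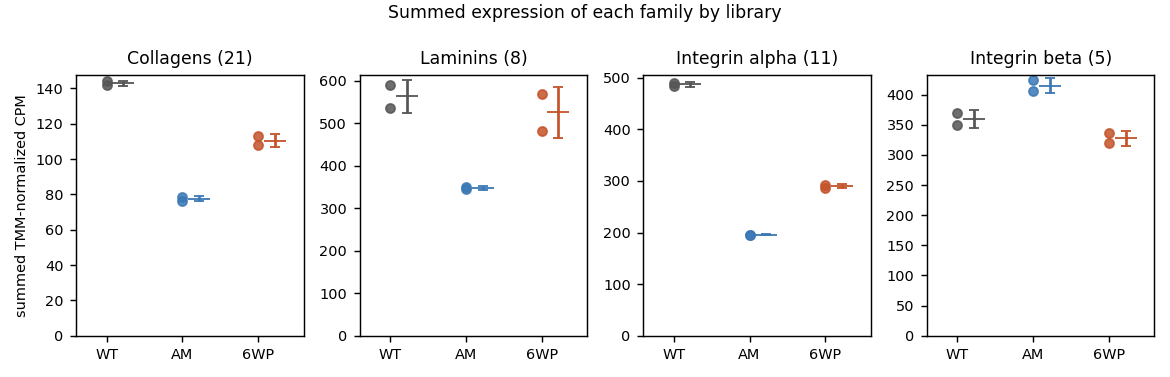
Summed TMM-normalized CPM (y axis, from 0) of the collagens, laminins, integrin alpha chains and integrin beta chains in WT, AM and 6WP cells. Points are libraries and bars are the mean ± SD of 2 libraries. Both AM libraries are lowest in the first 3 panels and highest in the last, where they stand at 424 and 406 CPM.

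Type IV collagen forms the network of the basement membrane, and its 6 chains are coded by head-to-head gene pairs. COL4A5 was the chain with the highest level per length. COL4A5 (chrX:108439838-108697545 on GRCh38, plus strand) was at 59.9 and 55.2 CPM in the WT libraries, 22.6 and 20.5 CPM in the AM libraries and 29.0 and 33.0 CPM in the 6WP libraries. The 3 groups did not overlap, with WT highest and AM lowest. Its expression fell by 1.42 ± 0.13 (SE) on the log2 scale in AM against WT cells (adjusted p = 0.0018), rose by 0.53 ± 0.13 in 6WP against AM cells (adjusted p = 0.0246), and fell by 0.89 ± 0.13 in 6WP against WT cells (adjusted p = 0.0152). The first call held without any 1 library. The others were lost without any 1 of the WT or AM libraries, with values of 0.46 to 0.60 and -0.96 to -0.83 there. Both were also lost when only the 4 libraries compared were fitted.

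COL4A6, whose start faces that of COL4A5 across the space shown above, was much less abundant. It was at 0.803 and 0.827 CPM in WT, 0.129 and 0.324 CPM in AM and 0.795 and 0.740 CPM in 6WP cells. The AM libraries were the lowest and WT and 6WP cells were close. The log2 fold change was -1.74 ± 0.47 in AM against WT cells (adjusted p = 0.0399) and 1.66 ± 0.46 in 6WP against AM cells (adjusted p = 0.0387). Without AM replicate 2 these became -2.63 and 2.53 and were not called, and AM replicate 1 had 3 counts. With each library left out in turn, they ranged from -2.63 to -1.33 and from 1.24 to 2.53. Neither was called with DESeq2's Wald test, and the fall in AM cells was also not called with the offset for transcript length. In 6WP against WT cells the difference was -0.09, with a 95% interval from -1.0 to 0.83. Neither gene of the other pair was called in any comparison. COL4A3 was at 3.24 ± 0.738 CPM in WT, 2.46 ± 0.26 CPM in AM cells and 3.58 and 2.85 CPM in the 6WP libraries, and COL4A4 at 2.07 ± 0.726, 0.935 ± 0.199 and 1.36 ± 0.0763 CPM. For COL4A4 the AM value was lower than WT by 1.17 ± 0.35 on the log2 scale (adjusted p = 0.0563). COL4A2 was at 2.00 ± 0.745 CPM in WT, 1.56 ± 0.0794 CPM in AM and 1.44 ± 1.19 CPM in 6WP cells, and COL4A1, with which its protein assembles, was listed at 0 in every library. COL8A2, a chain of another network collagen, was called in the same directions as COL4A6, at 0.714 and 0.459 CPM in WT, 0.172 and 0.0294 CPM in AM and 0.506 and 0.634 CPM in 6WP cells. AM replicate 2 lay below the level of 3 counts, and the log2 fold change of COL8A2 in AM against WT cells was -2.66 ± 0.69 (adjusted p = 0.0357), but -1.76 without AM replicate 2 and -4.13 without AM replicate 1. Against AM cells it was 2.62 ± 0.68 in 6WP cells (adjusted p = 0.0302), but 1.70 without AM replicate 2 and 4.08 without AM replicate 1.

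Of the fibrillar collagens, which form the banded fibers of connective tissue, COL5A2 was the only member called. It was at 14.1 and 12.5 CPM in WT, 7.06 and 6.24 CPM in AM and 16 and 12 CPM in 6WP cells. The AM libraries lay apart, while WT and 6WP cells overlapped. The log2 fold change was -1.0 ± 0.19 in AM against WT cells (adjusted p = 0.0138) and 1.08 ± 0.19 in 6WP against AM cells (adjusted p = 0.00954). COL1A1 (1.00 to 2.45 CPM over the 6 libraries), COL3A1 (0.471 to 1.77 CPM) and COL27A1 (1.38 to 3.38 CPM) did not pass the test. For COL27A1, the AM value was lower than WT by 1.08 ± 0.33 on the log2 scale (adjusted p = 0.0578).

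In the group of beaded and anchoring collagens, with which COL26A1 was placed, COL6A1 and COL26A1 were called in both comparisons with AM cells. COL6A1, a chain of the beaded filaments of type VI collagen, was at 9.91 and 12.2 CPM in WT, 5.29 and 5.89 CPM in AM and 7.81 and 12.2 CPM in 6WP cells. Its log2 fold change was -0.98 ± 0.24 in AM against WT cells (adjusted p = 0.0313) and 0.84 ± 0.24 in 6WP against AM cells (adjusted p = 0.0434). The latter was 0.45 and not called without 6WP replicate 2. COL26A1 was at 1.65 and 1.70 CPM in WT, 0.646 and 0.647 CPM in AM and 2.75 and 4.33 CPM in 6WP cells. It was lowest in AM and highest in 6WP cells, with no overlap between groups. It fell by 1.37 ± 0.35 on the log2 scale in AM against WT cells (adjusted p = 0.0346) and rose by 2.44 ± 0.33 in 6WP against AM cells (adjusted p = 0.00445). Against WT cells, the 6WP value of COL26A1 was higher by 1.08 ± 0.30 (adjusted p = 0.0923). COL6A2, the partner chain of COL6A1, was at 1.07 and 1.61 CPM in WT, 0.0861 and 0.530 CPM in AM and 0.614 and 0.564 CPM in 6WP cells, and its log2 difference of -1.97 ± 0.58 in AM against WT cells was not called (adjusted p = 0.0523) and was -3.89 without AM replicate 2 and -1.34 without AM replicate 1. COL6A3 (0.258 to 0.689 CPM) and COL7A1 (1.55 to 3.54 CPM), which forms the anchoring fibrils under epithelia, did not pass the test in any comparison.

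The fibril-associated collagens, which sit on the surface of fibrils, differed among themselves. COL9A3 had the highest level per length of all the collagens when averaged over the groups, and was at 19.9 and 20.5 CPM in WT, 22.5 and 22.9 CPM in AM and 24.7 and 20.6 CPM in 6WP cells. Its log2 difference between AM and WT cells was 0.17, with a 95% interval from -0.15 to 0.49, so a fall of the size seen in COL4A5 was outside the interval. COL9A2, which joins COL9A3 in the type IX trimer, was at 1.11 ± 0.182 CPM in WT, 0.623 ± 0.215 CPM in AM and 1.97 ± 0.948 CPM in 6WP cells. COL9A2 rose by 1.70 ± 0.44 in 6WP against AM cells (adjusted p = 0.032), but by 1.09 and without a call when 6WP replicate 2 was left out. COL16A1 was at 0.268 and 0.230 CPM in WT, 0.215 and 0.412 CPM in AM and 1.16 and 0.881 CPM in 6WP cells. Both 6WP libraries stood above the other 4. COL16A1 rose by 1.63 ± 0.42 in 6WP against AM cells (adjusted p = 0.0303), and its difference of 2.01 ± 0.47 in 6WP against WT cells was not called (adjusted p = 0.0611). COL14A1 was at 16.2 and 15.2 CPM in WT, 7.10 and 7.09 CPM in AM and 11 and 5.67 CPM in 6WP cells, and it fell by 1.15 ± 0.28 in AM against WT cells (adjusted p = 0.0298). Its 6WP libraries lay on either side of the AM libraries. COL21A1 (0.942 to 2.49 CPM) was not called. The transmembrane collagen COL25A1 was at 0.714 and 0.872 CPM in WT, 0.172 and 0.177 CPM in AM and 0.542 and 0.282 CPM in 6WP cells. COL25A1 fell by 2.15 ± 0.50 in AM against WT cells (adjusted p = 0.0258), and the difference of 1.21 in 6WP against AM cells was not called (adjusted p = 0.141).

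Laminins were the family with the most even pattern. All 8 chains had both AM libraries below the other 4, with a median log2 fold change of -0.93 in AM against WT cells and 0.85 in 6WP against AM cells. The chains LAMA5, LAMB1, LAMB2 and LAMC1 were called in both comparisons. LAMB3 was called in AM against WT cells and not in 6WP against AM cells, and whether its differences in these comparisons were unequal in size was not tested. LAMB1 (chr7:107923799-108003213 on GRCh38, minus strand), the beta chain of laminin-411 and laminin-511, was at 56.7 and 58.5 CPM in WT, 18.5 and 20.5 CPM in AM and 45.1 and 53.4 CPM in 6WP cells. Both AM libraries lay far below the rest, and the 6WP libraries lay slightly below the WT libraries. LAMB1 fell 2.95-fold in AM against WT cells (log2 fold change -1.56 ± 0.13, adjusted p = 0.00157) and rose 2.52-fold in 6WP against AM cells (1.33 ± 0.13, adjusted p = 0.00203). These calls of LAMB1 held under all alternatives, each library left out included. Against WT cells, the 6WP value of LAMB1 differed by -0.23, with a 95% interval from -0.52 to 0.07. Exons of LAMB1 overlap those of DLD on the opposite strand over 300 bases, 1.61% of their length.

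LAMC1, the gamma chain of most laminins and the most abundant chain per length, was at 333 and 350 CPM in WT, 235 and 228 CPM in AM and 284 and 337 CPM in 6WP cells. Its WT and 6WP libraries overlapped and its AM libraries did not reach them. It fell by 0.56 ± 0.12 in AM against WT cells (adjusted p = 0.0179) and rose by 0.43 ± 0.12 in 6WP against AM cells (adjusted p = 0.0367). The latter was 0.27 without 6WP replicate 2. LAMB2, the alternative beta chain, was at 105 and 125 CPM in WT, 68.5 and 77.0 CPM in AM and 108 and 131 CPM in 6WP cells. LAMB2 had changes of -0.66 ± 0.14 (adjusted p = 0.0202) and 0.72 ± 0.14 (adjusted p = 0.0135) in these comparisons. LAMA5, the alpha chain of laminin-511 and laminin-521, was at 29.0 and 40.5 CPM in WT, 12.5 and 16.5 CPM in AM and 30.9 and 30.5 CPM in 6WP cells. LAMA5 had changes of -1.26 ± 0.20 (adjusted p = 0.00791) and 1.08 ± 0.20 (adjusted p = 0.0104). Again only the AM libraries stood apart.

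LAMA3 and LAMB3, chains of a laminin that anchors epithelial cells to the basement membrane, were less abundant. LAMA3 was at 9.43 ± 1.92 CPM in WT, 7.18 ± 1.04 CPM in AM and 10.4 ± 1.8 CPM in 6WP cells and was not called. LAMB3 was at 2.9 and 4.22 CPM in WT, 1.29 and 1.12 CPM in AM and 2.89 and 1.83 CPM in 6WP cells, and it fell by 1.57 ± 0.34 in AM against WT cells (adjusted p = 0.0198). The log2 difference of LAMB3 in 6WP against AM cells was 0.98 ± 0.34 (adjusted p = 0.0748). LAMC3 stayed between 0.473 and 0.845 CPM and was not called.

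**Figure D3:**
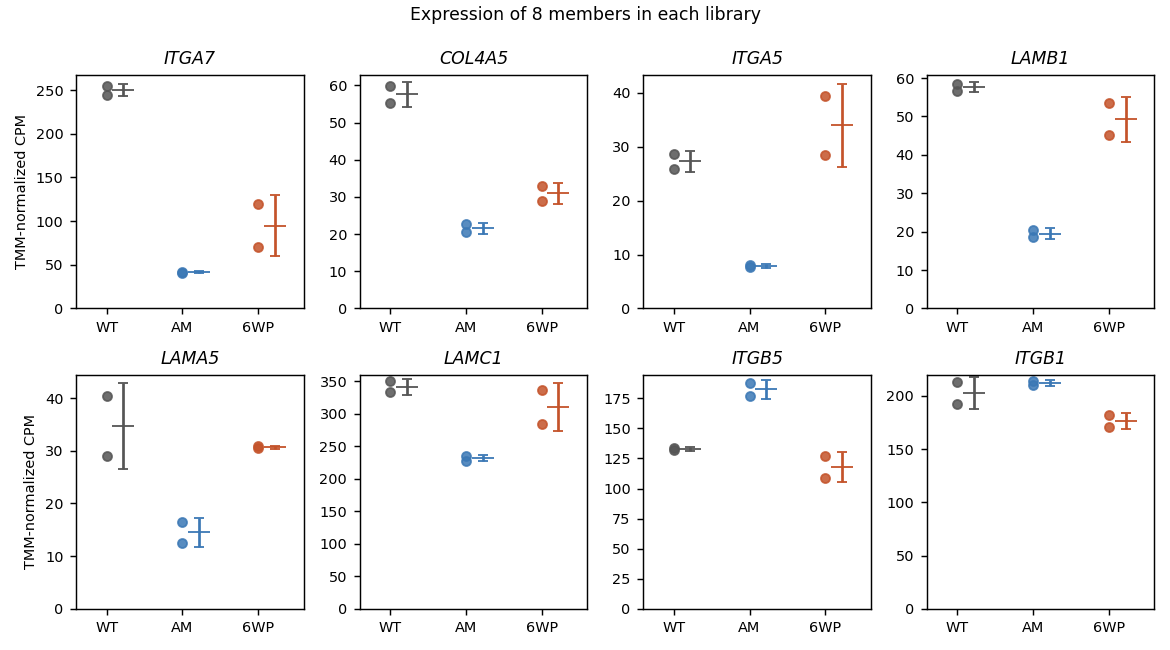
TMM-normalized CPM (y axes, from 0) of 8 members in WT, AM and 6WP cells, with libraries as points and bars for the mean ± SD of 2 libraries. The AM libraries are lowest for ITGA7, COL4A5, ITGA5, LAMB1, LAMA5 and LAMC1 and highest for ITGB5 (188 and 177 CPM), while ITGB1 spans 171 to 214 CPM over all libraries.

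Among the integrin alpha chains, which set which ligand a receptor binds, ITGA7 and ITGA5 had the greatest falls in AM against WT cells. ITGA7 (chr12:55684568-55716404 on GRCh38, minus strand) codes for a laminin-binding chain best known from muscle. It was at 245 and 255 CPM in WT, 42.2 and 40.7 CPM in AM and 120 and 70.0 CPM in 6WP cells. The groups did not overlap, and the 6WP libraries differed widely from each other. ITGA7 fell 6.03-fold in AM against WT cells (log2 fold change -2.59 ± 0.23, adjusted p = 0.00178), a call that held under all alternatives. It rose by 1.20 ± 0.22 in 6WP against AM cells (adjusted p = 0.011), with 0.76 without 6WP replicate 1 and 1.51 without 6WP replicate 2, and this call was lost without either AM replicate (1.23 and 1.18). It remained below WT in 6WP cells, by 1.39 ± 0.22 on the log2 scale (adjusted p = 0.0216), a call that was lost when only these 4 libraries were fitted or any 1 WT or AM library was left out, at values from -1.43 to -1.37. Exons of ITGA7 overlap those of BLOC1S1 over 119 bases and of METTL7B over 44 bases on the opposite strand.

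ITGA5 (chr12:54395261-54419266 on GRCh38, minus strand), the alpha chain of the main fibronectin receptor, was at 25.9 and 28.7 CPM in WT, 7.62 and 8.09 CPM in AM and 28.5 and 39.4 CPM in 6WP cells. The AM libraries were far below the rest, and the WT and 6WP libraries overlapped. ITGA5 fell 3.47-fold in AM against WT cells (log2 fold change -1.79 ± 0.18, adjusted p = 0.00258) and rose 4.32-fold in 6WP against AM cells (2.11 ± 0.18, adjusted p = 0.0018). The second call held under all alternatives, and the first was lost only without WT replicate 2, at -1.74. Against WT cells the 6WP value of ITGA5 differed by 0.32, with a 95% interval from -0.08 to 0.71. FN1, which codes for its ligand fibronectin, was at 78.2 and 72.3 CPM in WT, 152 and 115 CPM in AM and 109 and 55.3 CPM in 6WP cells and was not called in any comparison.

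The laminin-binding chains ITGA3 and ITGA6 had smaller changes of the same directions. ITGA3 was at 18.2 and 21 CPM in WT, 12.7 and 14.2 CPM in AM and 19.2 and 19.8 CPM in 6WP cells, with changes of -0.54 ± 0.14 (adjusted p = 0.0382) in AM against WT and 0.54 ± 0.14 (adjusted p = 0.0341) in 6WP against AM cells. ITGA6 was at 8.43 and 8.77 CPM in WT, 5.64 and 5.53 CPM in AM and 9.11 and 9.19 CPM in 6WP cells, with changes of -0.62 ± 0.16 (adjusted p = 0.0369) and 0.71 ± 0.16 (adjusted p = 0.0208). In 6WP against WT cells, ITGA6 differed by 0.09 with a 95% interval from -0.28 to 0.46. The collagen-binding chains ITGA1 and ITGA2 fell in AM cells and were not called in 6WP against AM cells. ITGA2 was at 40.1 and 39.5 CPM in WT, 18.6 and 12.7 CPM in AM and 15.2 and 27.9 CPM in 6WP cells, and fell by 1.35 ± 0.28 in AM against WT cells (adjusted p = 0.0188). ITGA1 was at 10.6 and 12 CPM in WT, 4.73 and 5.0 CPM in AM and 7.95 and 4.02 CPM in 6WP cells, and fell by 1.21 ± 0.30 (adjusted p = 0.0304). For both genes the 6WP libraries lay on either side of at least 1 AM library, and both 6WP libraries were below WT. In 6WP against WT cells the differences were -0.88 ± 0.28 for ITGA2 (adjusted p = 0.121) and -0.92 ± 0.29 for ITGA1 (adjusted p = 0.125). Exons of ITGA1 overlap those of PELO (2.69% of their length) and the pseudogene RPL17P21 (3.08%) on the same strand. They overlap those of ITGA2-AS1 on the opposite strand over 7.47% of their length.

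ITGAV, the alpha chain of the vitronectin receptors, was at 106 and 101 CPM in WT, 69.8 and 73.0 CPM in AM and 66.3 and 97.6 CPM in 6WP cells and was not called, with -0.54 ± 0.17 in AM against WT cells (adjusted p = 0.0654). ITGA9 was at 1.09 ± 0.342 CPM in WT, 0.480 ± 0.0703 CPM in AM and 1.16 ± 0.206 CPM in 6WP cells, with differences of -1.16 ± 0.40 (adjusted p = 0.0792) and 1.25 ± 0.38 (adjusted p = 0.0531) that were not called. ITGAE, which pairs with ITGB7 on lymphocytes within epithelia, was the exception among the alpha chains. It was at 21.4 and 16.9 CPM in WT, 28.6 and 30.5 CPM in AM and 18.4 and 12.1 CPM in 6WP cells. Both AM libraries were the highest. ITGAE fell by 0.96 ± 0.21 in 6WP against AM cells (adjusted p = 0.019), and its difference of 0.63 in AM against WT cells was not called (adjusted p = 0.0746). Its exons overlap those of HASPIN on the opposite strand over 6.47% of their length. ITGA4 (3.92 to 6.34 CPM) and ITGA2B (0.176 to 1.66 CPM) were not called, and exons of ITGA4 overlap those of CERKL on the opposite strand over 26.4% of their length.

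The most abundant beta chains, ITGB1 and ITGB5, were not lower in AM than WT cells. ITGB1, the shared partner of most alpha chains, was at 213 and 192 CPM in WT, 214 and 210 CPM in AM and 171 and 182 CPM in 6WP cells. Its log2 difference in AM against WT cells was 0.07, with a 95% interval from -0.18 to 0.31, and that in 6WP against AM cells was -0.26, with an interval from -0.51 to -0.02 and an adjusted p of 0.107. ITGB5 (chr3:124761948-124901418 on GRCh38, minus strand), a partner of ITGAV, was at 132 and 134 CPM in WT, 188 and 177 CPM in AM and 127 and 109 CPM in 6WP cells. The AM libraries were the highest. ITGB5 rose by 0.46 ± 0.11 in AM against WT cells (adjusted p = 0.0313), a call lost with upper quartile scaling and with scaling to library size only, and fell by 0.63 ± 0.11 in 6WP against AM cells (adjusted p = 0.0103). ITGB4, which pairs with ITGA6 in the hemidesmosomes of epithelial cells, was at 1.92 and 1.47 CPM in WT, 0.516 and 0.883 CPM in AM and 2.02 and 1.44 CPM in 6WP cells. ITGB4 rose by 1.26 ± 0.37 in 6WP against AM cells (adjusted p = 0.0452), a call lost under 10 of the alternatives, and its difference of -1.23 ± 0.38 in AM against WT cells was not called (adjusted p = 0.0584). ITGB8 was at 42.7 CPM in 6WP replicate 2 and between 17.5 and 23.1 CPM in the other 5 libraries and was not called, nor was ITGB7 (0.559 to 1.16 CPM), whose exons overlap those of ZNF740 on the opposite strand over 42.3% of their length.

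Of the 2 genes that are not chains, ITGB1BP1 codes for a protein that binds the tail of the beta-1 chain inside the cell, and ITGB3BP for a centromere protein. ITGB1BP1 was at 44.7 and 41.9 CPM in WT, 68.7 and 72.3 CPM in AM and 49.0 and 38.8 CPM in 6WP cells. Both AM libraries stood above the rest. ITGB1BP1 rose by 0.70 ± 0.14 in AM against WT cells (adjusted p = 0.0145) and fell by 0.68 ± 0.14 in 6WP against AM cells (adjusted p = 0.0137). Its exons overlap those of ASAP2 on the opposite strand over 33.2% of their length, and the strand setting of the counting is not given in the sources used here. ITGB3BP was at 12.7 to 25.8 CPM with no call.

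Levels between genes were compared as CPM per kb of the canonical transcript. Of the trimers that the detected chains can form, laminin-511 had its 3 chains at 3.04 (LAMA5), 10.2 (LAMB1) and 43.1 (LAMC1) CPM per kb in WT cells, at 1.27, 3.45 and 29.2 CPM per kb in AM cells and at 2.69, 8.72 and 39.2 CPM per kb in 6WP cells. The alpha chain was the lowest of the 3 in every group. LAMB2, the beta chain of laminin-521, was at 20.2, 12.8 and 21 CPM per kb in the same order of groups. The alpha chains LAMA1, LAMA2 and LAMA4, of laminin-211, laminin-411 and other trimers, fell under the count minimum. Among the integrins, ITGB1 was at 54.2, 56.8 and 47.2 CPM per kb, and ITGA7 was near it in WT cells at 60.6 CPM per kb but at 10 CPM per kb in AM and 23 CPM per kb in 6WP cells. ITGAV was second to ITGA7 in WT cells at 14.7 CPM per kb and in 6WP cells at 11.6 CPM per kb, while in AM cells it was at 10.1 CPM per kb, which did not differ from ITGA7 beyond the spread of the libraries. ITGA5 was at 6.42, 1.85 and 7.99 CPM per kb. In the type IV pair, COL4A5 at 8.81, 3.29 and 4.74 CPM per kb was far above COL4A6 at 0.122, 0.0339 and 0.115 CPM per kb.

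**Figure D4:**
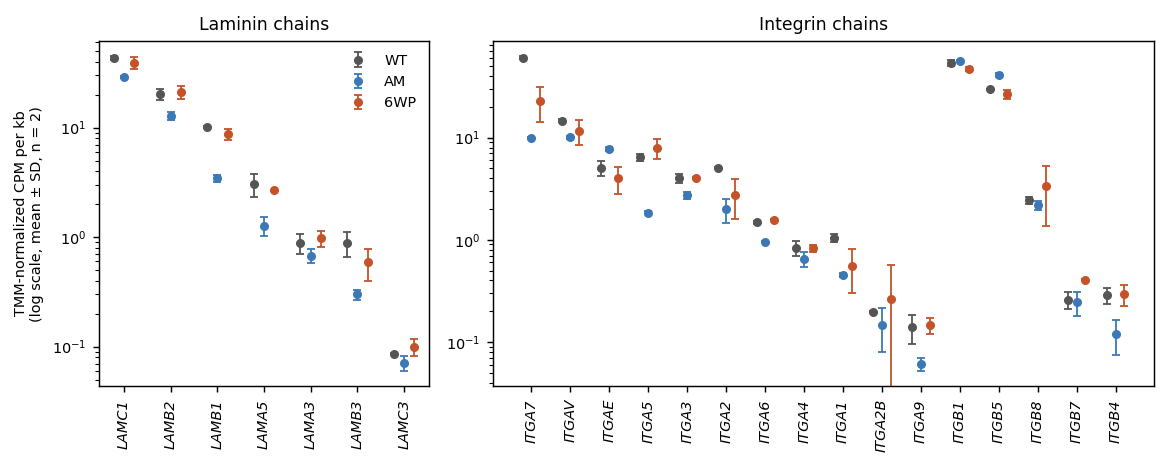
TMM-normalized CPM per kb of the canonical transcript (y axes, log scale) of 7 laminin chains and the 16 integrin chains in WT, AM and 6WP cells, shown as mean ± SD of 2 libraries. LAMC1 is the highest laminin chain in each group, and ITGA7 drops from 60.6 to 10 CPM per kb between WT and AM cells while ITGB1 stays between 47.2 and 56.8.

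Of the 39 symbols under the minimum, 23 were collagens, 4 laminins and 12 integrin names, and 11 were listed at 0 in every library, 8 of them collagens, including COL4A1, COL5A1, COL11A1 and COL15A1. COL1A2, whose protein pairs with that of COL1A1 in type I collagen, had 8 counts in all. ITGB3, the classical partner of ITGAV, had 1 count in either WT library, 8 counts in either AM library and 0 with phleomycin. These counts are too few for a comparison.

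Genes that make, bind or remodel this matrix were taken from lists of partner genes. The counts of these lists stand beside 9.93% of all tested genes that fell and 7.74% that rose in AM against WT cells, and 11.7% that rose and 9.68% that fell in 6WP against AM cells. At an unadjusted p under 0.05 the shares of all genes were 35.3% and 37.1%. Of the interstitial integrin ligands, 7 of 14 tested genes were lower and 0 higher in AM against WT cells by the edgeR test (11 at an unadjusted p under 0.05), at a median log2 fold change of -1.05, while FN1 had a value of 0.83 (adjusted p = 0.0775). In 6WP against AM cells, 5 of them rose and 0 fell (median 0.81, 9 at an unadjusted p under 0.05). EDIL3, a secreted ligand of ITGAV integrins, was at 9.73 and 10.1 CPM in WT, 1.25 and 0.883 CPM in AM and 5.96 and 4.23 CPM in 6WP cells. EDIL3 fell by 3.24 ± 0.28 (adjusted p = 0.00157) and rose by 2.28 ± 0.28 (adjusted p = 0.00344) in the comparisons with AM cells. CTGF was at 11.7 and 18.2 CPM in WT, 1.51 and 1.24 CPM in AM and 3.76 and 3.77 CPM in 6WP cells, and was also below WT in 6WP cells, by 1.99 ± 0.25 (adjusted p = 0.00899). TGFBI had log2 fold changes of -2.18 in AM against WT and 2.13 in 6WP against AM cells, and TNC was below WT in both AM and 6WP cells (-0.99 and -1.01, adjusted p = 0.00843 and 0.0215).

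Of 11 tested partners in the basement membrane, 5 fell (FREM1, NTN4, HSPG2, NID1 and FRAS1) and 1 rose (SMOC1) in AM against WT cells, at a median of -0.56. NID1, which bridges laminin and type IV collagen, was at 31.5 and 32.5 CPM in WT, 15.3 and 16.5 CPM in AM and 22.7 and 17.5 CPM in 6WP cells, and fell by 1.01 ± 0.16 in AM against WT cells (adjusted p = 0.00759). HSPG2, the gene of perlecan, fell by 1.55 ± 0.42 in AM against WT cells (adjusted p = 0.0404) and rose by 1.43 ± 0.41 in 6WP against AM cells (adjusted p = 0.0432). SMOC1, a calcium-binding matrix protein, went the other way, at 3.70 and 4.59 CPM in WT, 39.9 and 33.2 CPM in AM and 4.23 and 2.22 CPM in 6WP cells. SMOC1 rose 8.79-fold in AM against WT cells (adjusted p = 0.00178) and fell 11.32-fold in 6WP against AM cells (adjusted p = 0.00164). FREM1 had 19 and 23 counts in WT, 0 and 1 in AM and 2 and 10 in 6WP cells.

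The enzymes that fold, modify and crosslink collagen had 3 higher and 3 lower of 26 tested in AM against WT cells and a median of 0.05. In 6WP against AM cells, 1 of the 26 was higher and 2 were lower. The log2 fold changes there ran from -1.14 to 1.32, with a median of -0.18. P4HB, a subunit of prolyl 4-hydroxylase, was at 602 and 600 CPM in WT, 1040 and 1060 CPM in AM and 476 ± 63.8 CPM (mean ± SD) in 6WP cells, highest in AM and lowest in 6WP cells. P4HB rose by 0.80 ± 0.12 in AM against WT cells (adjusted p = 0.00746) and fell by 1.14 ± 0.12 in 6WP against AM cells (adjusted p = 0.00235). PPIB, a prolyl isomerase of the same compartment, rose by 0.72 ± 0.13 and fell by 1.07 ± 0.13 (adjusted p = 0.0106 and 0.0031). LEPREL1, a prolyl 3-hydroxylase that acts on type IV collagen, was at 4.78 and 5.74 CPM in WT, 1.59 and 1.62 CPM in AM and 0.795 and 1.23 CPM in 6WP cells. LEPREL1 was lower than WT in both, by 1.71 ± 0.27 in AM (adjusted p = 0.00841) and by 2.37 ± 0.29 in 6WP cells (adjusted p = 0.00831).

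Of the proteins that assemble on integrin tails inside the cell, 2 of 30 tested fell (TNS3 and ZYX) and 0 rose in AM against WT cells by the edgeR test (10 at an unadjusted p under 0.05). ZYX, the gene of zyxin, fell by 0.59 ± 0.14 in AM against WT cells (adjusted p = 0.0244) and rose by 1.06 ± 0.14 in 6WP against AM cells (adjusted p = 0.00379). TNS3 was at 46.2 and 43.7 CPM in WT, 18.3 and 21.1 CPM in AM and 21.2 and 21.6 CPM in 6WP cells, and was called lower than WT in both (-1.19 and -1.07, adjusted p = 0.0027 and 0.0076). A further comparison, 6WP against AM cells, had 3 of the 30 higher (ZYX, FYN and NEDD9) and 2 lower (FLNA and PARVB). Of 11 other receptors for laminin and collagen, 3 fell in AM against WT cells (BCAM, SDC2 and SDC4) and 1 rose in 6WP against AM cells (BCAM, a laminin receptor, by 0.96 ± 0.24 with an adjusted p of 0.0266). Among 16 proteases and inhibitors of matrix degradation, 2 fell in AM against WT cells, namely MMP14 by 1.11 ± 0.27 (adjusted p = 0.0287) and TIMP2 by 1.19 ± 0.19 (adjusted p = 0.00875). MMP14 and MMP16 rose in 6WP against AM cells, by 1.32 ± 0.26 and 1.29 ± 0.26 (adjusted p = 0.0136 for both). Over these lists, 6WP against WT cells gave 5 calls, all lower, where 1.37% of all tested genes fell and 1.63% rose. They were CTGF, FBN2 and TNC among the 14 ligands tested, LEPREL1 among the 26 collagen enzymes and TNS3 among the 30 genes of the adhesion complex.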

How the data were processed

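The data are 6 RNA libraries of 22Rv1 cells, 2 in each of 3 groups. The values deposited by the authors are raw gene counts for 29804 symbols, with no scaling. The study's methods give single end reads aligned to hg38 with STAR, transcript assembly with StringTie and TMM normalization with edgeR. The submitters' processing notes name STAR 2.5.3a, featureCounts 1.5.3, Subread, StringTie 1.3.3, edgeR 3.22.3 and R 3.5.0. The counting tool's strand setting and the gene annotation are not given in the sources used here.

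From these counts, TMM factors on full library totals were computed with edgeR 4.0.16 (R 4.3.3, limma 3.58.1), and filterByExpr with the 3 groups left 14672 genes. All 6 libraries entered 1 quasi-likelihood model with the group as its only term, since 2 libraries a group give little information on the spread, and 3 two-sided comparisons were tested with Benjamini-Hochberg adjustment over all tested genes at 0.05. Intervals are at 95%. Limits of 3 counts cover counting error only. The pipeline was tested on simulated data drawn with the same spread in every library. That test does not cover the greater spread of the 6WP libraries. Positions, overlaps and canonical transcripts come from GENCODE release 44 on GRCh38, which matched 21729 symbols and all 47 members, and promoter windows from RefSeq.

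The members, partner lists and markers were chosen with earlier results of these data known. Named were members with an adjusted p under 0.05 or an absolute log2 fold change above 1 at a mean of at least 1 CPM, the member of each family with the highest level per length, the subunits of listed complexes, and in each partner list up to 4 called genes a direction. Other members are given by range or because they lay near the threshold. Results of withheld items are not reported here. FN1, COL1A2 and ITGB3 were named after their values were seen. Alternatives were other scalings, filters and tests (DESeq2 1.42.0 among them), a replicate block, a fit to the 4 libraries compared, leaving out each library, and, chosen after seeing the data, offsets for transcript length and GC content.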

Additional observations from a re-analysis of the deposited data

How the results depend on the processing

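Directions were followed for 55 pairs of a member and a comparison, those called or with an absolute log2 fold change above 1, and 0 of them changed sign under the alternatives. The pairs were chosen on the same counts, so this is no independent check of their direction. Values near 0 were not followed. The members' median in 6WP against WT cells was -0.04. It was 0.01 with the offset for transcript length, -0.18 with that for GC content and -0.14 without 6WP replicate 1. The number of members called in 6WP against WT cells was 2, where 3.0% of all tested genes were called. It was 5 without the filter on low counts (all genes 4.37%) and 5 with DESeq2's Wald test (all genes 7.59%). It was 7 with edgeR's likelihood ratio test (all genes 10.2%) and 0 when only the 4 libraries compared were fitted (all genes 0.668%). In 6WP against AM cells the number of members called was 21, but 10 in the fit to 4 libraries, against 21.3% and 8.85% of all genes. In AM against WT cells it was 21, but 31 in that fit, against 17.7% and 45.2% of all genes. With 1 library left out in turn, it ranged from 0 to 15 in 6WP against WT cells, from 2 to 28 in 6WP against AM cells and from 3 to 31 in AM against WT cells. A group left with 1 library was assumed to vary like the others, and the cause of these shifts was not tested.

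Replicate numbers did not pair the libraries, as the deviations of same-numbered libraries correlated across genes at 0.0873 for 6WP and WT, -0.0206 for 6WP and AM, and 0.0395 for AM and WT cells. With the number as a replicate block, 2, 21 and 23 members were called in these comparisons, against 2.68%, 20.9% and 16.9% of all genes.

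Scaling moved the balance of calls over all genes. In AM against WT cells 1136 genes rose and 1457 fell with TMM, against 689 and 1832 with upper quartile scaling and 734 and 1664 with library size only. In 6WP against AM cells these were 1711 and 1420, 2276 and 1062, and 1892 and 1162. Upper quartile scaling put the median of all genes at 0.14 in 6WP against AM and -0.09 in AM against WT cells, with the members at 0.79 and -0.88. With offsets for transcript length and GC content, both chosen after seeing the data, 16 and 24 members were called in AM against WT cells. The shares of all genes fitted were 19.4% and 20.7%. Members under 1 CPM rest on few counts, and 6WP values on replicates that differed most.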
